A study of Mus musculus with 36 samples.

Results

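Bcl11b, Gata3, Lef1, Tox and Satb1 are transcription factors tied to the commitment of blood progenitors to the T cell lineage. Every probe set annotated to exactly 1 of these 5 genes was taken, whatever its value, which gave 15 of the 45037 non-control probe sets on the array and 5 of 18193 named genes. Bcl11b had 4 probe sets, Gata3 had 1, Lef1 had 2, Tox had 3 and Satb1 had 5.

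The study set early thymic progenitors beside the marrow cells that may seed the thymus, with 36 one-colour arrays of 8 sorted mouse populations. HSC are stem cells gated as LSKFlt3-CD48-CD150+. LSK are LSKFlt3hi IL7R+ cells, which the labels call thymic seeding progenitors, and CLP are common lymphoid progenitors, called a putative thymus seeding progenitor. ETP are ETPFlt3hi cells, the earliest T progenitors inside the thymus, and adult ETP are those whose titles say adult. DN2 (DN2Kit+) and DN3 are the next thymic stages, and pro-B are B cell progenitors. The labels give strain C57BL6, both sexes and 1 week of age for every array, even the adult ETP, and name no treatment or altered gene. The arrays came in 2 deposit sets on different scales, so levels are compared only within a set. Set 1 (15 arrays, 5 populations, each sample a pool from several mice) held 3 arrays each of HSC, LSK, ETP, DN2 and DN3. Set 2 (21 arrays, 7 populations, no remark on pooling) held 3 each of HSC, LSK, ETP, DN3 and pro-B, 4 of CLP and 2 of adult ETP. DN2 is therefore measured in set 1 alone, and CLP, adult ETP and pro-B in set 2 alone. The design text calls the replicates biological. The labels name the DN2 and DN3 gates no further than that.

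T cell precursors enter the thymus with several lineage options still open and give up the others step by step under Notch signalling from the stroma. SATB1 is a chromatin organiser that binds AT-rich DNA and is known in mice for priming stem cells towards lymphoid fates. TOX is an HMG-box protein needed for CD4 T cells and innate lymphoid cells. GATA3 is a zinc finger factor required from the earliest thymic stage. BCL11B is the zinc finger factor whose onset marks commitment, and without it mouse precursors keep progenitor and natural killer features. LEF1 is an HMG-box factor that binds the same DNA element as TCF1, its partner in thymocytes, and it is also known for a role in mouse pro-B cells.

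Annotated positions are those of the mouse assembly GRCm38.p6. Gata3 lies on chromosome 2 (9857078 to 9887953), Lef1 on chromosome 3 (131110297 to 131224357), Tox on chromosome 4 (6686353 to 6991557), Bcl11b on chromosome 12 (107910403 to 108004145) and Satb1 on chromosome 17 (51736187 to 51833290). The 250 bases before the RefSeq start of Bcl11b and of Gata3 are shown because these genes rose together at the DN2 stage. Both windows lie inside the span of their gene as annotated, upstream of a start site in the RefSeq table, and are written 5′ to 3′ on the gene's strand. Capitals mark a match to the TCF/LEF motif.

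Bcl11b, chr12:108003415-108003664, minus strand: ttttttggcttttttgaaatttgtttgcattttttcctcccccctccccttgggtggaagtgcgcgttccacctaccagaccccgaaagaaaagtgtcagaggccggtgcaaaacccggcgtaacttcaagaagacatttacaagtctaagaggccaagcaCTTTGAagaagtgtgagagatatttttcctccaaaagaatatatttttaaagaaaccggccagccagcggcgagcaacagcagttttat
Gata3, chr2:9878601-9878850, minus strand: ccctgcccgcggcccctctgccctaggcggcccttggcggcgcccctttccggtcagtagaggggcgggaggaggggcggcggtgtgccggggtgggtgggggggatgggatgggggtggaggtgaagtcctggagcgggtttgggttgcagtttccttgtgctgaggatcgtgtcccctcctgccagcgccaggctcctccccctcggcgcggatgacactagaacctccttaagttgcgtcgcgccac

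Both strands of each window were searched for 5 motifs of T lineage regulators. Among the 32851 promoter windows of this length in the table, 14.0% held the RUNX motif TGTGGT, 9.99% the GATA motif AGATAA, 13.8% the TCF/LEF motif CTTTGA, 21.6% the CSL motif TGGGAA of Notch signalling and 44.8% the E protein motif CAGNTG. The Bcl11b window held 1 match, to the TCF/LEF motif, at position -89 from the start site. The Gata3 window held none of these letters. The Bcl11b window was 44.8% G or C and the Gata3 window 70.0%.

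Markers of the sorting gates, and Pax5 as a lineage marker, were compared between populations. Set 1 levels of Il2ra, the CD25 chain of the interleukin 2 receptor, averaged 12.27 in DN2 and 5.13 in ETP, and those of Slamf1 (CD150) 4.95 in LSK and 8.91 in HSC. Set 2 levels of Pax5, the B lineage factor, averaged 10.76 in pro-B, 7.22 in CLP, 8.56 in LSK and 5.79 in HSC. Set 1 levels of Pax5 averaged 5.53 in LSK and 4.99 in HSC. Cd48, whose protein HSC were sorted to lack, averaged 10.24 in LSK and 3.40 in HSC in set 1, and 10.07 in LSK and 5.86 ± 1.41 in HSC in set 2 (SD, n = 3). All levels are log2 values after RMA, an averaging over the probes of a set that includes background correction and normalization. To be called, a probe set needed an adjusted p under 0.05 together with a change of 2-fold or more (1 log2 unit). Tests were made with limma over all probe sets, with Benjamini-Hochberg adjustment. Each difference is the first-named minus the second-named population, with its standard error. Comparisons with a population in common also share its arrays. The number of arrays limits the precision, and no detection calls were used, so a low level is not separated here from background.

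**Figure D1:**
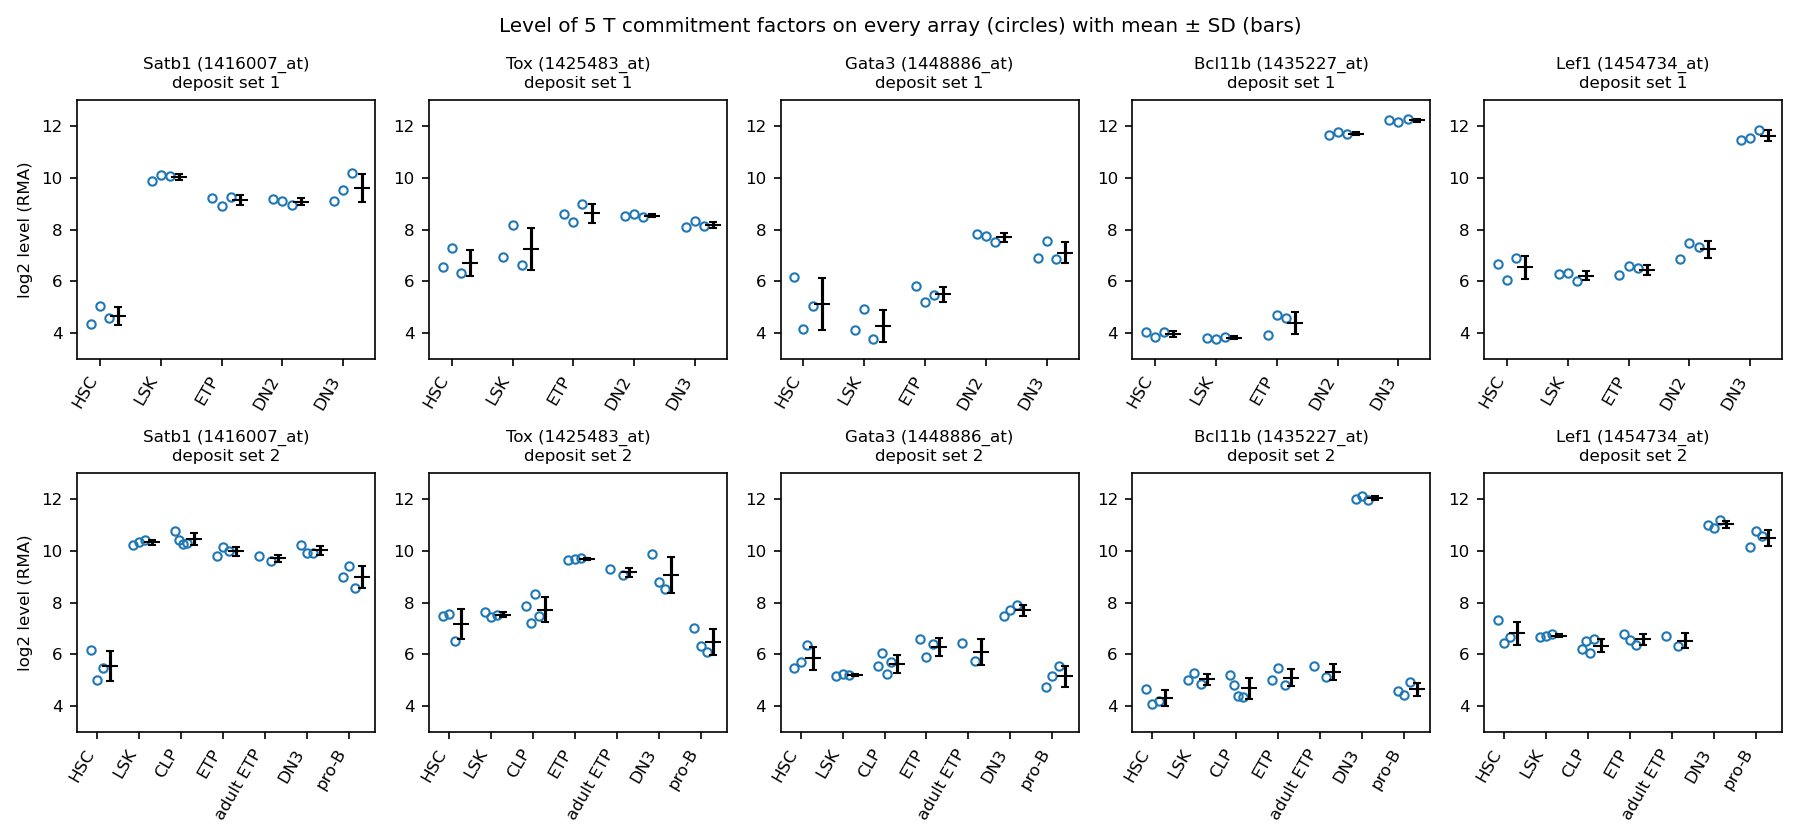
Log2 level after RMA (vertical axis) of 1 probe set of each gene on every array (circles) with mean ± SD (bars), by population in developmental order, deposit set 1 above and deposit set 2 below. Satb1 steps up at LSK, Tox is highest at ETP, Gata3 and Bcl11b step up at DN2 in set 1, and Lef1 is high in DN3 and, in set 2, in pro-B.

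Satb1 was the first of the 5 to rise, and it rose before the thymus. For probe set 1416007_at the set 1 levels were 9.89, 10.10 and 10.07 in LSK, against 4.35, 5.05 and 4.58 in HSC. In set 2 they were 10.23, 10.34 and 10.41 in LSK, against 6.17, 5.02 and 5.48 in HSC. Every LSK array lay above every HSC array of its set. The difference was 5.06 ± 0.17 (SE, n = 6 arrays each; adjusted p = 9.07e-19). The other 4 Satb1 probe sets differed by 1.99 to 3.54, and all 5 were called.

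LSK against HSC gave 6 called probe sets among the 15, all higher, where 3.37% of all probe sets were called higher and 7.42% either way. The 6th was Tox 1425484_at, with a difference of 1.08 ± 0.26 (adjusted p = 0.00209). It fell under 2-fold without LSK array 3 (0.99), without LSK array 4 (0.98) or without HSC array 3 (0.78), the last being the lowest HSC array at 4.06. Of the other Tox probe sets, 1425483_at differed by 0.44 and 1442039_at by 0.02. Gata3 differed the other way by -0.75 ± 0.25 (adjusted p = 0.0279), short of 2-fold. As cells were sorted in bulk, fewer expressing cells and less RNA per cell cannot be told apart here or below.

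Other marker lists moved in the same comparison. Of 19 measured cell cycle genes 14 were higher in LSK than in HSC, and of 18 measured B lineage genes 11 were higher, where 3.9% of all genes, taken by 1 probe set each, were called higher. Late granulocyte transcripts (11 of 16 measured) averaged 4.33 to 6.40 on the LSK arrays and 4.11 to 5.28 on the HSC arrays of set 1, and 4.65 to 5.39 on the LSK arrays and 4.75 to 6.83 on the HSC arrays of set 2. The highest of these were LSK arrays 1 and 3 within set 1 and HSC array 5 within set 2. In set 1 HSC arrays 1 and 2 (5.28 and 5.23) also lay above HSC array 3 (4.11). None of the 11 was called in this comparison. Without LSK arrays 1 and 3 and HSC array 5 the Satb1 differences were 1.87 to 4.97 and all 5 probe sets remained called. The part of the cell cycle and B lineage genes in the result was not tested.

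After LSK, the Satb1 means stayed above those of HSC through the thymic stages, with smaller differences between those stages. For 1439449_at in set 2 the means were 8.53 in ETP, 8.50 in adult ETP and 7.74 in HSC, less than 2-fold apart. The thymic stages were not tested against HSC. None of the 5 Satb1 probe sets was called in CLP against LSK, ETP against LSK, DN2 against ETP, DN3 against DN2 or DN3 against ETP. The largest of these differences was 0.91 ± 0.23 for 1439315_at in DN3 against ETP (adjusted p = 0.00569). Within set 1 it was 1.15 (adjusted p = 0.0217), past both thresholds, and within set 2 it was 0.68 (adjusted p = 0.276). For 1439449_at the difference was 0.70 (adjusted p = 0.0342). All 5 probe sets were higher in DN3 than in DN2, by 0.50 to 0.82. The highest mean was that of DN3 for 1439315_at in both sets and for 1439449_at in set 1. A small difference below 0, short of 2-fold, was measured in ETP against LSK for 1416007_at (-0.62, adjusted p = 0.0456) and 1436182_at (-0.71, adjusted p = 0.0414). For 1416007_at the set 1 order was LSK, DN3, ETP, DN2 and HSC, at 10.02, 9.60, 9.13, 9.08 and 4.66. Arrays of neighbours in that order overlapped except between DN2 and HSC. In set 2 the order was CLP, LSK, DN3, ETP, adult ETP, pro-B and HSC, at 10.45, 10.33, 10.02, 9.98, 9.72, 8.98 and 5.56. There CLP overlapped LSK, DN3 overlapped ETP and ETP overlapped adult ETP, and the other neighbours did not overlap.

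CLP against LSK gave 0 called probe sets of the 15 by limma, and 0 with an unadjusted p under 0.05. Of all probe sets 0.258% were called and 7.1% had an unadjusted p under 0.05. In the same comparison 10 of 19 cell cycle genes were lower in CLP, where 0.319% of all genes were called lower. The 4 CLP arrays spread widely in late granulocyte transcripts, with means of 7.82, 6.61, 5.83 and, on the array without a number, 5.26.

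Tox rose at the step into the thymus. Its 1425483_at levels in set 2 were 9.63, 9.68 and 9.72 in ETP, against 7.63, 7.43 and 7.53 in LSK and 7.85, 7.22, 8.33 and 7.49 in CLP (arrays 1, 2 and 3 and the one without a number). In set 1 they were 8.60, 8.28 and 9.0 in ETP, against 6.96, 8.18 and 6.63 in LSK. All ETP arrays lay above all LSK and CLP arrays of their set, although LSK array 2 (8.18) came close to the lowest ETP array (8.28).

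ETP against LSK gave 3 called probe sets of the 15, all higher, where 0.671% of all probe sets were called higher and 1.48% either way. They were Tox 1425483_at (1.76 ± 0.25, adjusted p = 2.27e-05), Tox 1425484_at (1.29 ± 0.26, adjusted p = 0.00192) and Gata3 (below). Tox 1442039_at differed by 0.99 ± 0.16 (adjusted p = 0.00018), just short of 2-fold. Set against CLP, ETP gave 2 called probe sets, both Tox, where 0.575% of all were called higher and 0.993% either way. Their differences were 1.95 ± 0.33 for 1425483_at (adjusted p = 0.000609) and 1.65 ± 0.34 for 1425484_at (adjusted p = 0.00549), and 1442039_at had 0.85 (adjusted p = 0.0395).

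Late granulocyte transcripts averaged 3.92 to 4.12 on the ETP arrays of set 1, below the LSK arrays of that set (4.33 to 6.40). In set 2 they averaged 4.78 to 4.95 on the ETP arrays, overlapping LSK (4.65 to 5.39) and below every CLP array (5.26 to 7.82). B lineage genes moved as well, with 12 of 18 lower in ETP than in LSK and 9 of 18 lower in ETP than in CLP. Of all probe sets 1.48% and 0.993% were called either way in these comparisons. In ETP against CLP 3 of 19 cell cycle genes were higher, where 0.575% of all probe sets were called higher. The part of the B lineage and cell cycle genes in the Tox result was not tested. Leaving out HSC 5, LSK 1 and 3 and CLP 1 and 2 kept 1425483_at called against LSK (1.30, adjusted p = 0.00634) and against CLP (1.77, adjusted p = 0.00951). The same omission took 1425484_at out of the calls against CLP (1.34, adjusted p = 0.164). With the CLP array without a number left out in place of CLP 2, 1425484_at stayed called against CLP (1.78, adjusted p = 0.0322) and lost its call against LSK (1.14, adjusted p = 0.0636).

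Within the thymus no Tox probe set was called in DN2 against ETP (-0.14 to 0.25), DN3 against DN2 (-0.58 to -0.35) or DN3 against ETP (-0.53 to -0.19). Each Tox probe set was lower in DN3 than in DN2. For 1425483_at and 1425484_at the arrays of these stages did not overlap. In set 2 the order of 1425483_at was ETP, adult ETP, DN3, CLP, LSK, HSC and pro-B, at 9.68, 9.17, 9.06, 7.72, 7.53, 7.18 and 6.48. Arrays overlapped between neighbours except between ETP and adult ETP and between DN3 and CLP. One DN3 array of set 2 was higher (9.87) than the other 2 (8.80 and 8.52).

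Gata3 rose at 2 steps, from LSK to ETP and from ETP to DN2. Its 1 probe set, 1448886_at, gave in set 1 levels of 6.17, 4.15 and 5.05 in HSC, 4.12, 4.93 and 3.75 in LSK, 5.80, 5.21 and 5.48 in ETP, 7.83, 7.75 and 7.51 in DN2 and 6.91, 7.57 and 6.85 in DN3. The 3 HSC arrays spread over about 2 log2 units and overlapped those of LSK and ETP. No ETP array overlapped an LSK array, and no DN2 array overlapped an ETP array. In set 2 the levels were 5.47, 5.71 and 6.35 in HSC, 5.15, 5.23 and 5.21 in LSK, 6.58, 5.88 and 6.39 in ETP, and 7.49, 7.70 and 7.93 in DN3. CLP had 5.55, 6.04, 5.22 and 5.70, adult ETP 6.43 and 5.74, and pro-B 4.74, 5.17 and 5.53. DN3 stood clear of all other populations of set 2, and below it each population overlapped the next in the order ETP, adult ETP, HSC, CLP, LSK and pro-B.

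ETP against LSK differed by 1.23 within set 1 (adjusted p = 0.0697) and 1.09 within set 2 (adjusted p = 0.206), neither called alone. Over both sets the difference was 1.16 ± 0.25 and was called (adjusted p = 0.00457). This call was lost when LSK arrays 1 and 3 were left out with HSC 5, CLP 1 and 2 (0.83, adjusted p = 0.226), and in a test against 1.5-fold (adjusted p = 1). The larger step was at DN2, with 2.20 ± 0.35 over ETP (adjusted p = 0.00011). DN3 differed from DN2 by -0.59 ± 0.35 (adjusted p = 0.455) and from ETP by 1.52 ± 0.25 (adjusted p = 4.17e-05). ETP against CLP gave 0.65 ± 0.33 (adjusted p = 0.57).

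Bcl11b showed no called difference up to ETP and then rose steeply at DN2. Set 1 levels of 1435227_at were 11.67, 11.77 and 11.68 in DN2, against 3.91, 4.70 and 4.56 in ETP. LSK arrays had 3.82, 3.75 and 3.86, and HSC arrays 4.02, 3.83 and 4.04. In DN3 they were 12.24, 12.15 and 12.27. DN2 and DN3 arrays stood clear of all others, and ETP overlapped HSC as HSC did LSK. Set 2 levels were 12.01, 12.14 and 11.98 in DN3, against 5.02, 5.47 and 4.81 in ETP. The highest array of any other population there was adult ETP array 1 (5.54), and all populations below DN3 overlapped their neighbours.

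The DN2 against ETP difference was 7.32 ± 0.21 for 1435227_at (adjusted p = 1.03e-19). It was 5.68, 5.45 and 2.01 for 1438784_at, 1452966_at and 1450339_a_at, whose highest adjusted p was 2.43e-07. None of the 4 was called in LSK against HSC, CLP against LSK, ETP against LSK or ETP against CLP, where their differences ran from -0.60 to 0.41. From DN2 onward the gene was near its final level, with DN3 minus DN2 differences of 0.30 to 0.74 (lowest adjusted p = 0.206). DN3 against ETP gave 2.33 to 7.39 over both sets, all 4 called.

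DN2 against ETP called 5 of the 15 probe sets, all higher, namely the 4 of Bcl11b and that of Gata3, where 1.33% of all probe sets were called higher and 2.53% either way. DN3 against ETP called 7, all higher (Bcl11b, Gata3 and both of Lef1), where 2.09% of all probe sets were called higher and 5.14% either way. Double-positive thymocyte markers (14 of 16 measured) averaged 6.75 to 6.93 on the DN2 arrays, 5.63 to 5.83 on the ETP arrays and 7.60 to 7.71 on the DN3 arrays of set 1. Of these 14 markers, 5 were called higher in DN2 than in ETP and 1 lower. Of all genes 1.43% were called higher and 1.5% lower there. In DN3 against DN2 6 of the 14 were higher and 0 lower, where 0.967% of all genes were called higher. Of the coreceptor genes that define those cells, Cd4 had means of 6.21 in DN2 and 6.43 in ETP. Cd8a had means of 5.0 in DN2 and 5.26 in ETP. The part of these markers in the result was not tested. None of the 11 late granulocyte markers was called in DN2 against ETP, and all 11 lay below the array median on every DN2 and ETP array of set 1.

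Lef1 came last on the T path. Set 1 levels of 1454734_at were 11.45, 11.55 and 11.86 in DN3, against 6.88, 7.49 and 7.33 in DN2. In ETP they were 6.24, 6.60 and 6.50. The DN3 arrays stood more than 3 log2 units above all DN2 arrays, and the DN2 arrays lay above the ETP arrays without overlap. In set 2 they were 11.01, 10.90 and 11.18 in DN3, against 6.80, 6.57 and 6.36 in ETP. DN3 against DN2 gave 4.39 ± 0.22 for 1454734_at (adjusted p = 2.89e-14) and 4.54 ± 0.33 for 1421299_a_at (adjusted p = 6.33e-11). These were the 2 called probe sets of the 15 in that comparison, both higher, where 0.917% of all were called higher and 2.25% either way.

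In its means, Lef1 in DN2 lay between ETP and DN3. For 1454734_at the DN2 arrays overlapped HSC, with a lowest DN2 array of 6.88 and a highest HSC array of 6.90. For 1421299_a_at they overlapped LSK, whose highest array was 3.59. The DN2 difference over ETP was 0.79 ± 0.22 for 1454734_at (adjusted p = 0.0433) and 1.04 ± 0.33 for 1421299_a_at (adjusted p = 0.084), and neither was called. For 1421299_a_at DN2 array 1 (3.50) was lower than the other 2 (4.71 and 4.37), against 3.21, 3.26 and 2.99 in ETP. Without that array the difference was 1.38 and was called (adjusted p = 0.0172), and it was also called after quantile normalization within each set (1.07, adjusted p = 0.0435). No Lef1 probe set was called in LSK against HSC, CLP against LSK, ETP against LSK or ETP against CLP (-0.39 to 0.28).

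**Figure D2:**
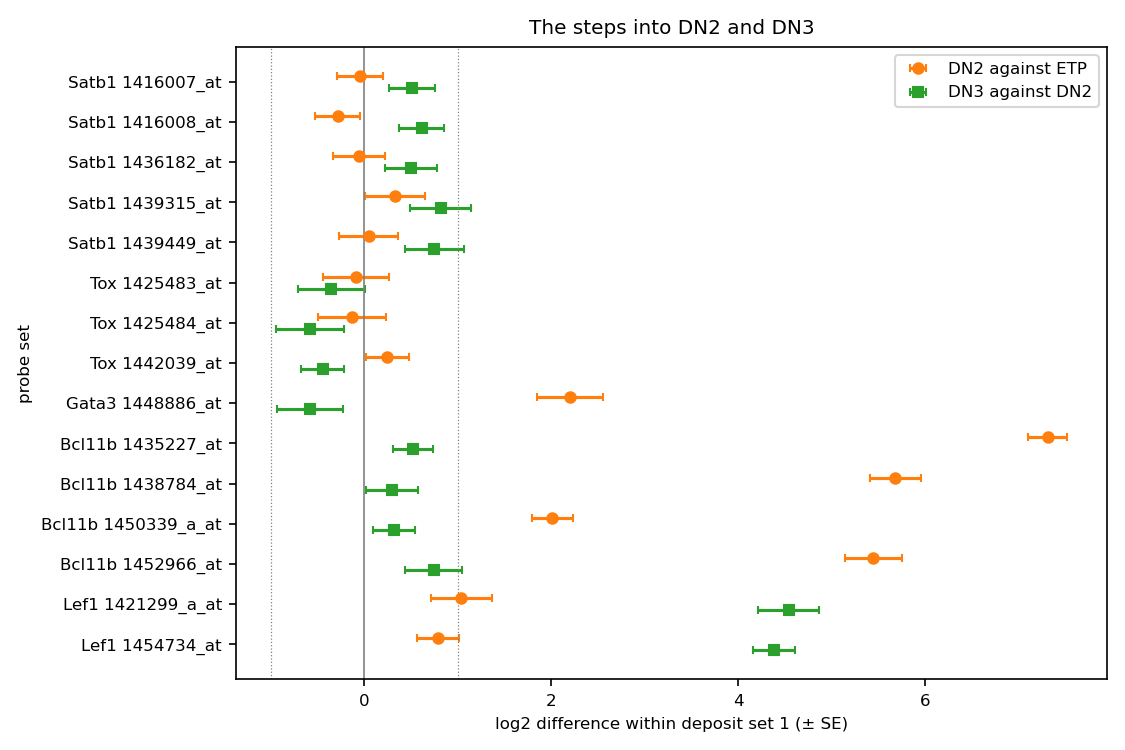
Log2 differences within deposit set 1 (horizontal axis, ± SE) for the 15 probe sets, with DN2 minus ETP as circles and DN3 minus DN2 as squares; dotted lines mark 2-fold. Bcl11b and Gata3 sit far right at the step into DN2 (2.01 to 7.32) and Lef1 at the step into DN3 (4.39 and 4.54), while Tox and Satb1 stay within 1 of 0 at both steps.

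The 2 steps were set against each other in 1 test within set 1, chosen after the levels were seen. The DN3 minus DN2 step less the DN2 minus ETP step was -6.80, -5.39, -1.70 and -4.70 for the Bcl11b probe sets 1435227_at, 1438784_at, 1450339_a_at and 1452966_at, with adjusted p-values from 2.33e-13 to 0.0149. For Gata3 it was -2.78 (adjusted p = 0.0102), and for Lef1 it was 3.51 and 3.60 (adjusted p = 0.00027 and 3.31e-07). These 7 of 15 were called, where 1.62% of all probe sets were called either way, 0.584% higher and 1.03% lower. No Tox or Satb1 probe set was called. The Gata3 difference kept its size but not its call without DN2 array 1 (-2.65, adjusted p = 0.0768) or DN2 array 2 (-2.73, adjusted p = 0.0667). That of Bcl11b 1450339_a_at was lost without DN2 array 2 (-1.16, adjusted p = 0.309). Against 1.5-fold neither was called (adjusted p = 0.0833 for Gata3 and 0.343 for Bcl11b 1450339_a_at), and with only the arrays of these 3 populations that of Bcl11b was not (adjusted p = 0.133). At DN2 the Bcl11b probe sets had covered 86.3% to 95.1% of their log2 difference between DN3 and ETP, and those of Lef1 15.2% and 18.6%. Gata3 had covered 136.3%, being higher in DN2 than in DN3.

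Outside the T lineage the 5 genes separated. Lef1 1454734_at had levels of 10.15, 10.77 and 10.58 in pro-B, against 6.20, 6.51, 6.05 and 6.58 in CLP, and 1421299_a_at had 8.46, 8.65 and 7.63 in pro-B, against 4.03, 3.90, 3.84 and 3.68 in CLP. No arrays overlapped. The differences were 4.17 ± 0.21 (adjusted p = 1.48e-14) and 4.38 ± 0.30 (adjusted p = 2.35e-11). DN3 against pro-B gave 0.53 ± 0.22 (adjusted p = 0.112) and -0.20 ± 0.33 (adjusted p = 0.769), neither called.

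Satb1 and Tox were lower in pro-B. Satb1 1416007_at had 8.98, 9.40 and 8.56 in pro-B, against 10.79, 10.43, 10.28 and 10.30 in CLP, a difference of -1.46 ± 0.23 (adjusted p = 5.01e-05). The 5 Satb1 probe sets differed by -2.21 to -1.14, all called. The smallest, 1439449_at, lost its call without pro-B array 3 (-0.86, adjusted p = 0.0675). It also lost it without CLP 1 and 2, LSK 1 and 3 and HSC 5 (-0.92, adjusted p = 0.14). That omission kept every pro-B array, although they averaged 6.17 to 6.92 in late granulocyte transcripts. Tox 1425483_at had 7.03, 6.32 and 6.08 in pro-B, against 7.85, 7.22, 8.33 and 7.49 in CLP, with no overlap. It differed by -1.25 ± 0.33 (adjusted p = 0.0111) and 1425484_at by -1.26 ± 0.34 (adjusted p = 0.0117), while 1442039_at had -0.47 (adjusted p = 0.164). The call of 1425483_at was lost without pro-B array 2 (adjusted p = 0.0543) or 3 (adjusted p = 0.0551), and that of 1425484_at without pro-B array 1 (-0.98, adjusted p = 0.121) or without CLP 1, the CLP array without a number and the LSK and HSC arrays named above (-1.13, adjusted p = 0.0946).

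Pro-B against CLP thus called 2 of the 15 higher and 7 lower, where 2.86% and 2.25% of all probe sets were called. Bcl11b (-0.11 to 0.05) and Gata3 (-0.48 ± 0.33, adjusted p = 0.395) were not called. Of the marker lists, 14 of 19 cell cycle genes and 15 of 18 B lineage genes were higher in pro-B, where 3.29% of all genes were called higher. Late granulocyte transcripts averaged 6.17 to 6.92 on the pro-B arrays and 5.26 to 7.82 on the CLP arrays, and none of the 11 was called. Their part in the result was not tested.

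DN3 against pro-B called 13 of the 15 probe sets, all higher, where 2.85% of all were called higher and 7.09% either way. Bcl11b differed by 2.54 to 7.40, Gata3 by 2.56 ± 0.35 (adjusted p = 4.57e-06), Tox by 1.14 to 2.99 and Satb1 by 1.04 to 2.63. The 2 not called were those of Lef1. Marker lists moved in the same comparison, where 7.09% of all probe sets were called either way. Lower in DN3 were 16 of 18 B lineage genes, 12 of 19 cell cycle genes, 6 of 16 macrophage and dendritic markers and 4 of 11 late granulocyte markers. Their part in the result was not tested. The smallest calls depended on 1 array. Satb1 1416007_at (1.04) fell to 0.83 without pro-B array 3 and to 0.94 without DN3 array 4, Satb1 1436182_at (1.21) to 0.89 without pro-B array 3, and Tox 1442039_at (1.14) to 0.93 without DN3 array 6.

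**Figure D3:**
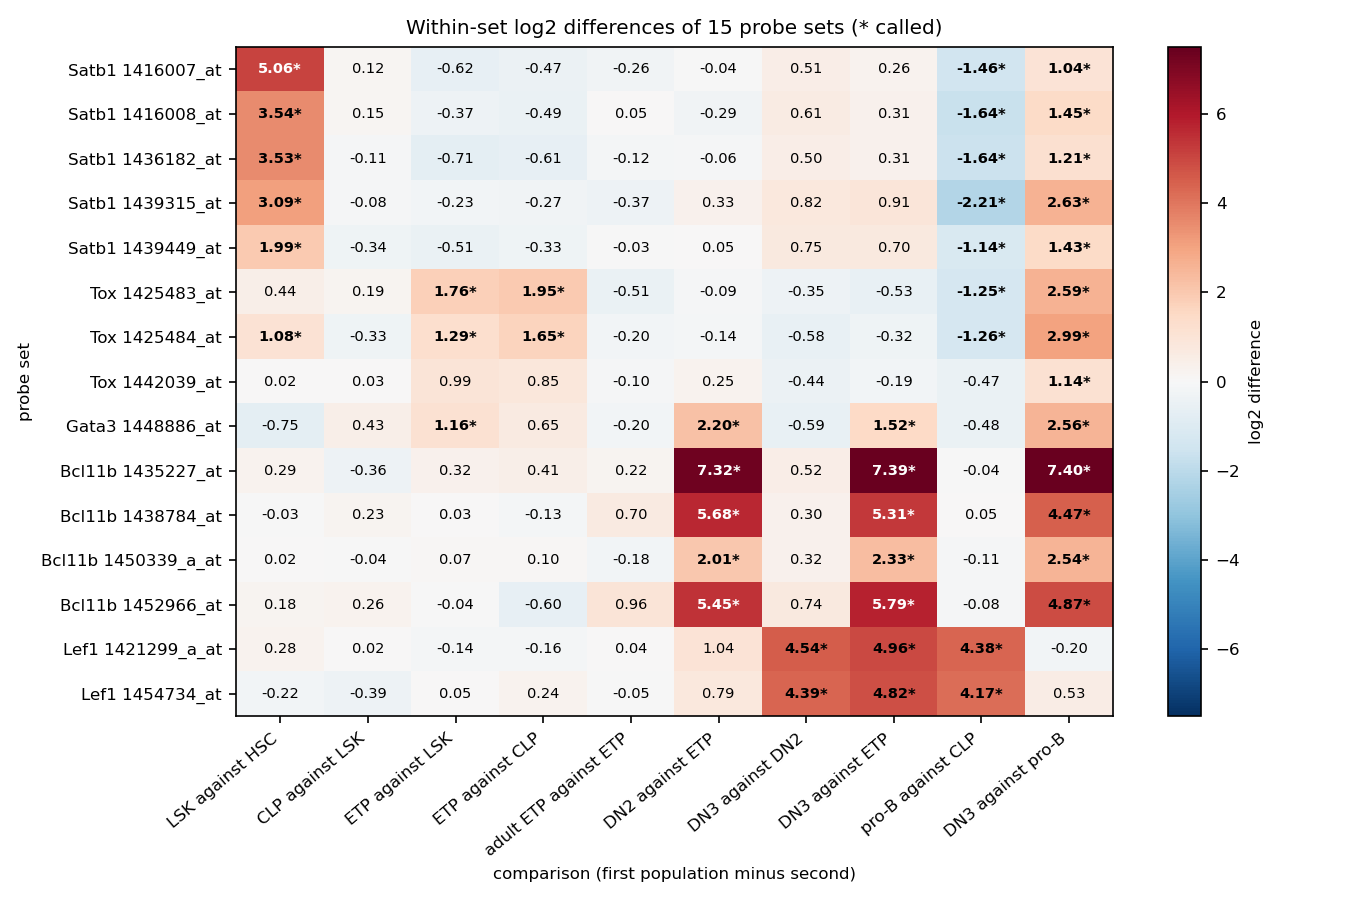
Log2 differences (colour and number) of the 15 probe sets (rows) in 10 within-set comparisons (columns, first population minus second), with an asterisk on those called. Satb1 is called in the first column, Bcl11b in DN2 against ETP, DN3 against ETP and DN3 against pro-B, and Lef1 in DN3 against DN2 and in pro-B against CLP.

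Adult ETP against ETP gave 0 called probe sets of the 15 by limma, where 0.113% of all probe sets were called. An unadjusted p under 0.05 was found for 10.4% of all probe sets and for 2 of the 15. Both belonged to Bcl11b. Levels of 1452966_at were 6.10 and 5.92 in adult ETP, against 5.49, 5.10 and 4.54 in ETP, and those of 1438784_at 5.78 and 5.99 in adult ETP, against 5.23, 5.20 and 5.12 in ETP. The arrays did not overlap for either. The differences were 0.96 ± 0.34 (unadjusted p = 0.00861, adjusted p = 0.296) and 0.70 ± 0.31 (unadjusted p = 0.0297, adjusted p = 0.416). With arrays weighted by their fit, 1452966_at was called (1.04, adjusted p = 0.0245). The other Bcl11b probe sets had 0.22 and -0.18, with overlapping arrays. Tox 1425483_at had 9.29 and 9.05 in adult ETP, against 9.63, 9.68 and 9.72 in ETP (-0.51 ± 0.40, adjusted p = 0.705).

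Whether the 2 deposit sets gave different differences was tested for the 3 comparisons that both held. For 0 of the 15 probe sets was the difference between sets called by limma, with 4 at an unadjusted p under 0.05 in LSK against HSC, 0 in ETP against LSK and 4 in DN3 against ETP. The lowest adjusted p was 0.317, and 0.38%, 0.0178% and 0.00444% of all probe sets were called. Bcl11b 1438784_at, for example, differed by 4.65 in set 2 and 5.98 in set 1 in DN3 against ETP (unadjusted p = 0.00187, adjusted p = 0.459).

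The 10 measured close relatives of the 5 genes were set beside them. Bcl11a, the paralogue of Bcl11b with roles in stem cells and B cells, fell at DN2, where Bcl11b rose, and fell again at DN3. Its level was 8.30 to 8.58 on the DN2 arrays and 10.25 to 10.56 on the ETP arrays of set 1, a difference of -1.99 ± 0.22 (adjusted p = 1.48e-07). DN3 against DN2 gave -1.67 ± 0.22 (adjusted p = 5.35e-06), and DN3 against pro-B -4.24 ± 0.22 (adjusted p = 6.7e-15). It was not called in LSK against HSC, CLP against LSK, ETP against LSK or ETP against CLP (-0.13 to 0.16).

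Gata2, a stem and progenitor factor, was lower in LSK than in HSC by -2.12 ± 0.14 (adjusted p = 1.73e-12) where 4.52% of all genes were called lower, and was called in none of the other 9 comparisons. Gata1, Gata4 and Gata6 were called in none of the 10. Tcf7l2 was lower in ETP than in LSK (-1.02, adjusted p = 3.91e-06) and in DN3 than in ETP (-1.35, adjusted p = 3.87e-09), and Tcf7l1 lower in LSK than in HSC (-1.01, adjusted p = 9.05e-08). Tcf7l1 averaged 4.13 in LSK and 4.65 in HSC in set 1, and 5.65 and 7.15 in set 2. Tox3 rose in DN3 against ETP by 1.62 (adjusted p = 8.46e-12), and Tox2 and Tox4 were called in none. The DN3 means of Tox3 were low, at percentile 42.8 of probe sets in set 1 and 32.0 in set 2. In DN3 against pro-B Tcf7l2 was also called lower (means 7.95 and 9.80) and Tox3 higher (means 4.99 and 3.38). Of these relatives 1 of 10 was called in DN2 against ETP, where 2.93% of all genes were called.

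**Figure D4:**
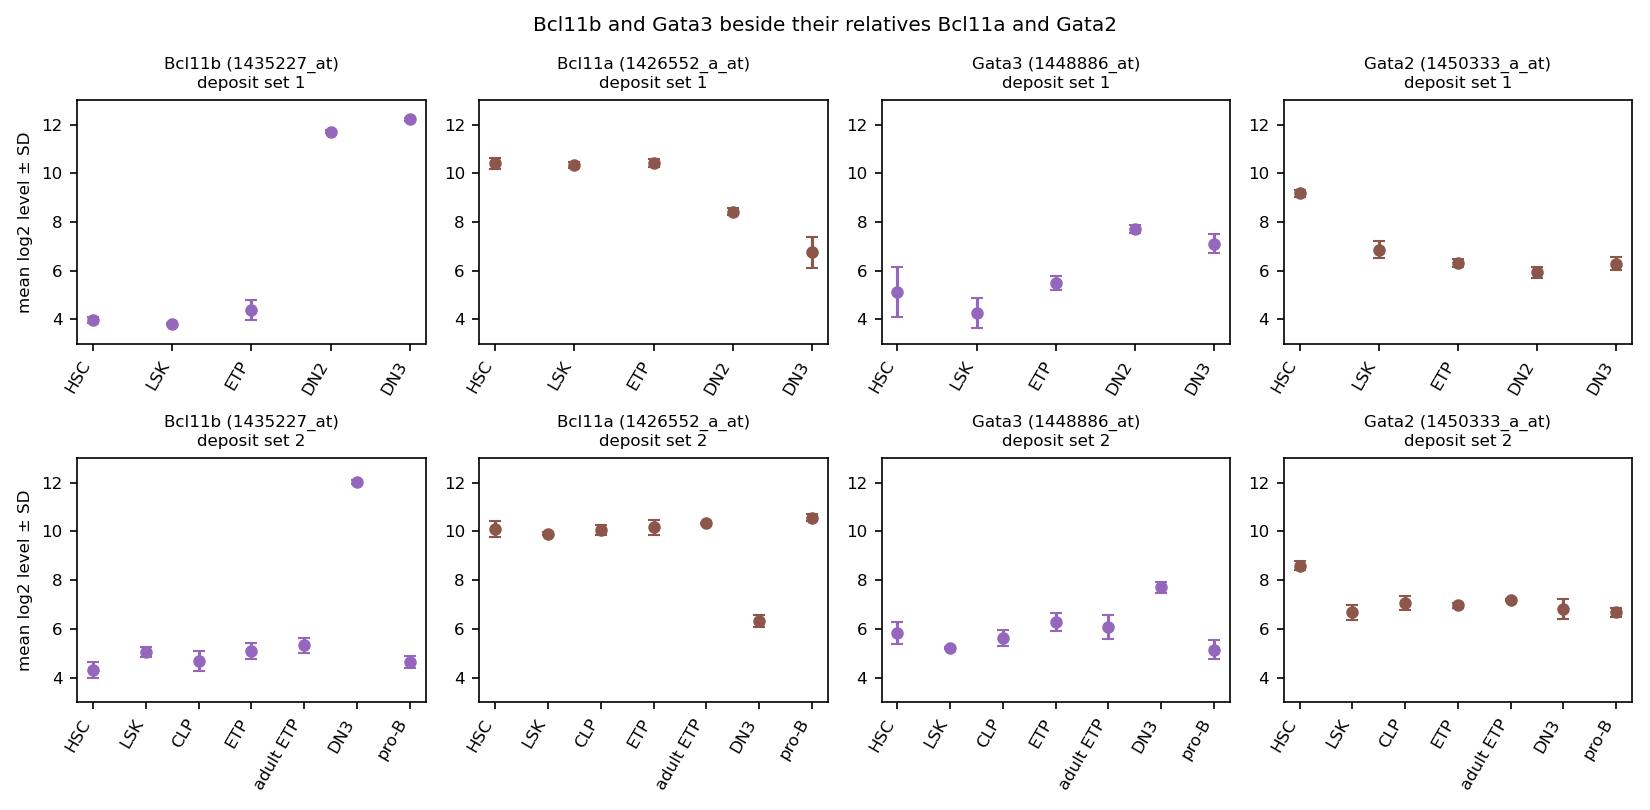
Mean log2 level after RMA ± SD (vertical axis) of Bcl11b, Bcl11a, Gata3 and Gata2 by population in developmental order, deposit set 1 above and deposit set 2 below. Bcl11b is high in DN2 and DN3, while Bcl11a is lower in DN2 than in ETP and lower again in DN3. Gata2 is highest in HSC where Gata3 is not.

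Genes of the T cell receptor and its signalling rose at the steps into DN2 and DN3. Of 22 measured, 11 were higher in DN2 than in ETP and 0 lower, where 1.43% of all genes were called higher, and their median difference was 1.42 against -0.02 over all genes. The largest were Cd3g, a chain of the CD3 complex (8.01), and Il2ra (7.13). Il2ra was among the markers used above to check the populations, so its rise is no independent result. DN3 against DN2 called 5 of the 22 genes higher, where 0.967% of all genes were, led by Ptcra, the pre-T receptor chain (3.75), and Cd3d (3.73). Of 21 other T lineage regulators 3 were higher in DN2 than in ETP, among them Notch3 (2.45) and Ets1 (1.84). In DN3 against DN2 4 were higher, led by Egr1 (2.48) and Ets2 (1.89), and 2 lower, Runx3 (-1.72) and the Notch target Nrarp (-1.08).

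Progenitor regulators moved the other way. Of 21 measured, 8 were lower in DN2 than in ETP and 0 higher, where 1.5% of all genes were called lower, among them Flt3 (-5.67) and Lmo2 (-4.46). ETP were sorted as Flt3hi, so the lower Flt3 in DN2 is no independent result. In DN3 against DN2 9 of the 21 regulators were lower, where 1.6% of all genes were, led by Hhex (-4.52) and Lyl1 (-4.40). Of 17 natural killer and innate genes 4 were lower in DN2 than in ETP, led by Il18r1 (-3.23) and Klrd1 (-1.82), and 1 was higher, Fcer1g (1.38). In DN3 against DN2 3 were lower, among them Cd244a (-4.15) and Tyrobp (-3.34).

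The genes whose levels followed each member most closely were found over the 12 population-by-set means, each set centred, among 1748 genes spanning at least 2 log2 units. The correlations are descriptions, since all genes share the same arrays. Bcl11b was closest to Nebl (Pearson r = 0.997), Cd3g (0.996) and Il2ra (0.996), and Gata3 to Il17rb, the interleukin 25 receptor chain (0.979), the T cell receptor gene segment Trgv4 (0.968) and Il2ra (0.951). Lef1 was closest to Scn4b (0.990), Plxdc1 (0.979) and Ikzf3, the Ikaros family member Aiolos (0.975). Tox was closest to Dzip1 (0.962), Gpr65 (0.943) and Pdgfrb (0.940), and Satb1 to Dntt, which adds bases at receptor gene joints (0.966), Xrcc6 (0.948) and Slc9a9 (0.941). Among the members themselves the highest value was that of Bcl11b and Gata3 (0.929) and the lowest that of Lef1 and Tox (-0.017).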

How the data were processed

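Per the submitters' processing notes the authors processed the arrays with RMA (version not given), and the deposited table holds 1 expression value per probe set and array. Its log base is not stated, and the deposited values were read as log2. Total RNA was amplified and biotin-labelled, per the labels. The 15 arrays with a tissue label had medians of 5.12 to 5.22 and the other 21 medians of 5.84 to 5.95, so these were taken as sets normalized apart. Of 45101 probe sets, 64 controls were left out. The annotation named 1 gene for 34945, several for 932 and none for 9160, and 204 symbols found no match in the current gene table. A gene was represented by its probe set with the highest mean.

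limma 3.58.1 in R 4.3.3 fitted 12 population-by-set means to 36 arrays. Contrasts were taken within sets and averaged over both where both held the 2 populations, with Benjamini-Hochberg adjustment over 45037 probe sets. The fit was tested on simulated data. Python 3.11.15 made tables and plots. Every member probe set is described. Other genes named are the 3 closest in pattern to each member, for each list the 2 calls that rose most and the 2 that fell most, and the relatives. Population labels were checked on markers of the sorting gates and on Pax5. The members and lists were chosen with earlier results of these data known. Alternatives changed the model, arrays, scaling, weights, filter and threshold, and each array was left out in turn.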

Additional observations from a re-analysis of the deposited data

Results flagged for a closer look

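In CLP 2 Bcl11b probe sets had 1 array far from the other 3. For 1438784_at CLP array 1 had 5.77, against 5.17, 5.16 and 5.18, a gap of 0.965 of the group's range. For 1452966_at it had 6.42, against 5.43, 5.37 and 5.37, a gap of 0.946. The critical value of Dixon's test for 4 arrays is 0.829, and chance passes it in about 1 of 20 groups. CLP was the only group of 4 or more arrays within a set, so 15 groups were tested. The same array had the highest mean of the 4 for late granulocyte markers (7.82) and erythroid markers (7.03). The other Bcl11b probe sets read 5.21 (1435227_at, against 4.81, 4.39 and 4.33) and 5.53 (1450339_a_at, against 6.02, 5.89 and 6.02) on it. No Bcl11b probe set was called in a comparison with CLP, with or without this array.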

How the results depend on the processing

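Of the differences per probe set or gene, 1313 results of leaving out 1 array kept their side of the threshold, 8 gained a call and 14 lost one. Over the other alternatives 1598 kept it, 13 gained and 23 lost. No called difference changed sign. Counts of called members moved by more than 1.5 times in few cases. ETP against LSK (3) gave 6 with no fold threshold and 1 in the test against 1.5-fold. ETP against CLP (2) gave 1 in that test and 1 without HSC 5, LSK 1 and 3 and CLP 1 and 2, a choice made after seeing the data because the planned omission had named the CLP array without a number in place of CLP 2. Adult ETP against ETP (0) gave 1 with array weights, and DN3 against DN2 (2) gave 1 among probe sets above the median mean, a filter that took out 1 Lef1 probe set. Leaving out 1 array gave 5 to 6 in LSK against HSC, 0 in CLP against LSK, 3 to 4 in ETP against LSK, 2 in ETP against CLP, 0 in adult ETP against ETP, 5 to 6 in DN2 against ETP, 2 in DN3 against DN2, 7 to 8 in DN3 against ETP, 7 to 9 in pro-B against CLP, 11 to 13 in DN3 against pro-B and 5 to 7 in the test of the 2 steps. Array numbers did not pair the samples: deviations of same-numbered arrays had a median correlation of -0.004 in set 1 and -0.002 in set 2. With the replicate number as a block the counts were 6, 3, 5, 2, 7 and 9 in LSK against HSC, ETP against LSK, DN2 against ETP, DN3 against DN2, DN3 against ETP and pro-B against CLP, equal to those without it. In the other 4 comparisons no paired analysis was possible because the populations share fewer than 2 numbers within a set. The deposited values carry no signal over background, so low levels have no detection limit here.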
